A study of Mus musculus and Homo sapiens with 10 samples.

Results

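The older primate L1 copies are long interspersed elements of the subfamilies L1PA10 to L1PA17 and L1PB1 to L1PB4. They were chosen by subfamily name alone from a table of human L1 copies, each longer than 5 kb, and made up 1156 of 9840 copies and 12 of 64 subfamilies. L1PA8A, which the same choice allowed, had 0 copies in the table. RNA had been sequenced from the human embryonic stem cell line H1 at passage 69, with 1 library of cells transduced with a lentiviral vector carrying hairpins against the DNA methyltransferases (DNMT knockdown) and 1 library of cells transduced with the same kind of vector with no hairpin insert (control). Both groups thus share the lentiviral transduction and the line, and the RNA was cytoplasmic and poly(A)-selected. With 1 library per group no test between the groups is possible, so each ratio given here is knockdown over control in these 2 libraries, with a 95% interval that covers counting error only.

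L1 elements copy themselves through an RNA that is transcribed from a promoter inside the element. Subfamilies of the L1PA and L1PB lineages follow each other in primate evolution, with higher numbers marking older groups, and the older copies have gathered mutations and no longer move. DNA methylation is a known means of keeping L1 promoters silent. Reads over an old copy can stem from its own promoter or from a transcript that runs through it, and the deposited values do not separate these sources. In bulk RNA, more cells with an active copy and more RNA per cell cannot be told apart.

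The knockdown library held 92478094 reads and the control library 100921087. Reads in L1 copies made up 0.230% of the knockdown library and 0.149% of the control library, and reads in the older copies made up 0.0239% and 0.0225%. Of the targeted enzymes, the maintenance methyltransferase DNMT1 stood at 6.95 RPKM in the knockdown and 24.5 RPKM in the control (reads per kilobase of feature, scaled to the library total), DNMT3B at 75.9 and 181 RPKM and DNMT3A at 12.2 and 17.9 RPKM. All 10 stem cell markers had a mean of at least 1 RPKM, and their summed level was 1764 RPKM in the knockdown and 2272 RPKM in the control, with a median ratio of 0.818. POU5F1, the core pluripotency factor, stood at 893 RPKM in the knockdown and 921 RPKM in the control, SOX2 at 66.4 and 107 RPKM and NANOG at 32.6 and 17.3 RPKM, while TDGF1, a NODAL co-receptor, was more than 2-fold lower at 144 and 418 RPKM. Among markers of other cell types, 0 of 4 mesoderm and 0 of 4 endoderm genes reached that mean. It was reached by 4 of 7 fibroblast genes (COL1A1, COL1A2, THY1 and VIM), 1 of 3 neuroectoderm genes (NES) and 1 of 4 trophectoderm genes (KRT7). In the fibroblast list, THY1 stood at 109 RPKM in the knockdown and 35.2 RPKM in the control. VIM stood at 31.8 and 63.2 RPKM, COL1A1 at 18.2 and 22.8 RPKM and COL1A2 at 26.1 and 36.7 RPKM. COL3A1 stood at 0.0926 and 0.00722 RPKM, LUM at 0.00511 and 0 RPKM and DCN at 0.0201 and 0 RPKM. The summed level was 186 and 158 RPKM for the fibroblast list and 50.2 and 33.4 RPKM for the neuroectoderm list (knockdown, then control). It was 2.97 and 11.4 RPKM for the trophectoderm list and 1.67 and 0.307 RPKM for the endoderm list. For the mesoderm list it was 0.271 and 0.347 RPKM. KRT7 governed the trophectoderm sum at 2.84 and 11.4 RPKM. CDX2 (0.0517 and 0.019 RPKM), GATA3 (0.0247 and 0.00323 RPKM) and TFAP2A (0.0481 and 0.022 RPKM) were higher in the knockdown. NES, with a ratio of 1.51, governed the neuroectoderm sum, while PAX6 (0.0895 and 0.107 RPKM) and SOX1 (0.0711 and 0.181 RPKM) were lower. FOXA2 governed the endoderm sum at 1.24 and 0.00816 RPKM. The part of these lists in the L1 values was not tested. The genomic positions below are those of the deposited table, for which the submitters' processing notes name hg19. No gene annotation or sequence of that build was used here, so host genes, exons and bases are not given.

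Summed over all 1156 copies, the older L1 elements differed little between the libraries. They held 22082 reads in the knockdown and 22693 in the control, or 239 and 225 RPM (reads per 1000000 library reads), a ratio of 1.06 (1.04 to 1.08). This total was governed by a single L1PB1 copy on chromosome 12, described below. Without it, the remaining 1155 copies held 5508 reads in the knockdown and 4434 in the control, a ratio of 1.36 (1.30 to 1.41). Without the highest copy of each of the 12 subfamilies the ratio was 1.17 (1.11 to 1.23), and without the 10 highest copies of all it was 1.24 (1.17 to 1.31).

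Most older copies were close to silent in both libraries. In the knockdown 515 copies and in the control 588 copies had at least 1 read, 337 copies had reads in both, and 390 copies (33.7%) had none in either. A further 178 copies had reads only in the knockdown and 251 only in the deeper control library. Over all 9840 L1 copies, 846 (8.60%) had no read in either library, 410 had reads only in the knockdown and 703 only in the control. Among the 621 L1M copies (subfamily names starting with L1M), these numbers were 292 (47.0%), 78 and 130. The median copy was listed at 0 RPKM in the knockdown and at 0.00137 RPKM in the control, which is below the worth of 1 read in a 6000 bp copy (0.00180 RPKM in the knockdown and 0.00165 RPKM in the control). A count of 0 in a library allows up to 3 reads, so at this depth silence and a very low level cannot be told apart.

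**Figure D1:**
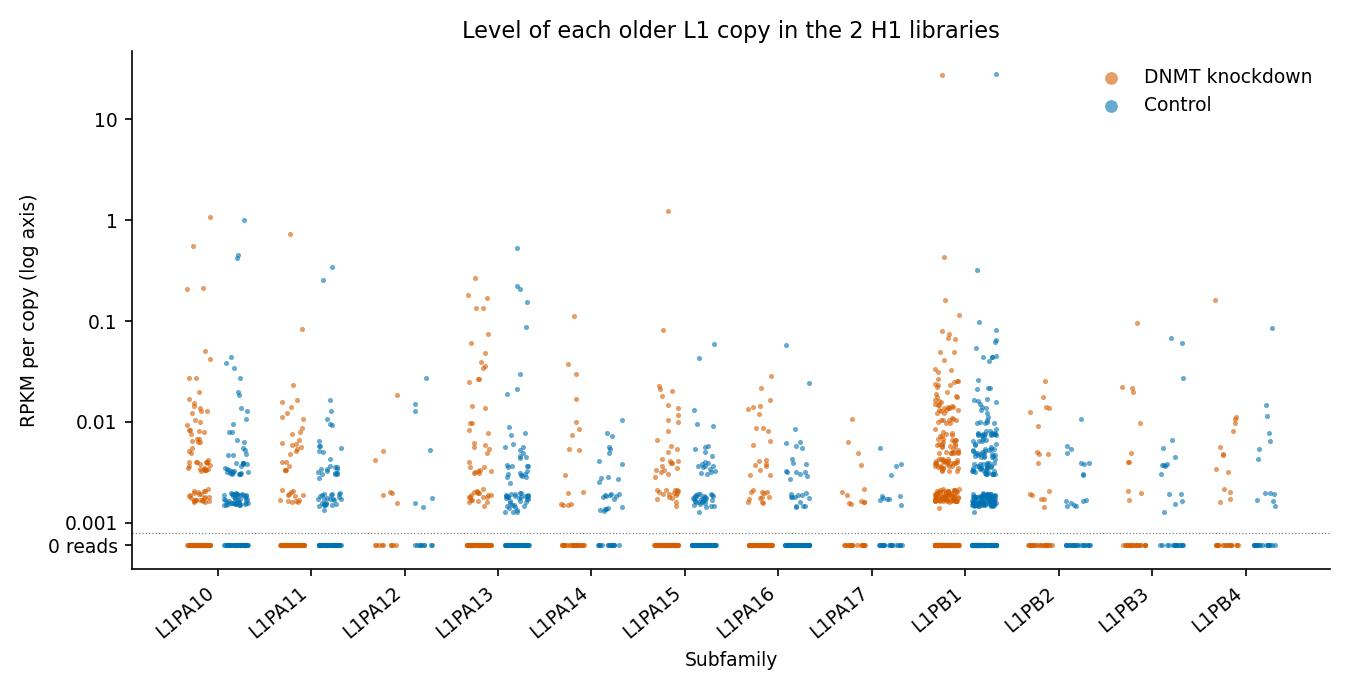
Level of every older L1 copy in RPKM on a log axis, by subfamily, with the knockdown library left of the control library in each pair and copies without reads on the lowest line. Most points lie at or near the level of 1 read, and 1 L1PB1 copy stands apart at 27.5 RPKM in the knockdown and 27.8 RPKM in the control.

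The reads were held by very few copies. The highest copy took 75.1% (74.5 to 75.6%) of the reads of all older copies in the knockdown and 80.5% (79.9 to 81.0%) in the control, and the 10 highest copies of each library took 87.4% and 90.7%. In the knockdown 18 copies, and in the control 9 copies, made up 90% of the reads. Among the 7838 younger copies (L1HS and L1PA2 to L1PA8) the same 90% was spread over 3835 copies in the knockdown and 4561 in the control. Among the 621 ancient L1M copies (subfamily names starting with L1M) it lay in 9 copies in the knockdown and 121 in the control. The highest L1M copy of each library took 79.6% of the L1M reads in the knockdown and 21.1% in the control. Within subfamilies, the copy with the highest mean level held over 25% of the reads in at least 1 library in 11 of 12 subfamilies and over 50% in 5.

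**Figure D2:**
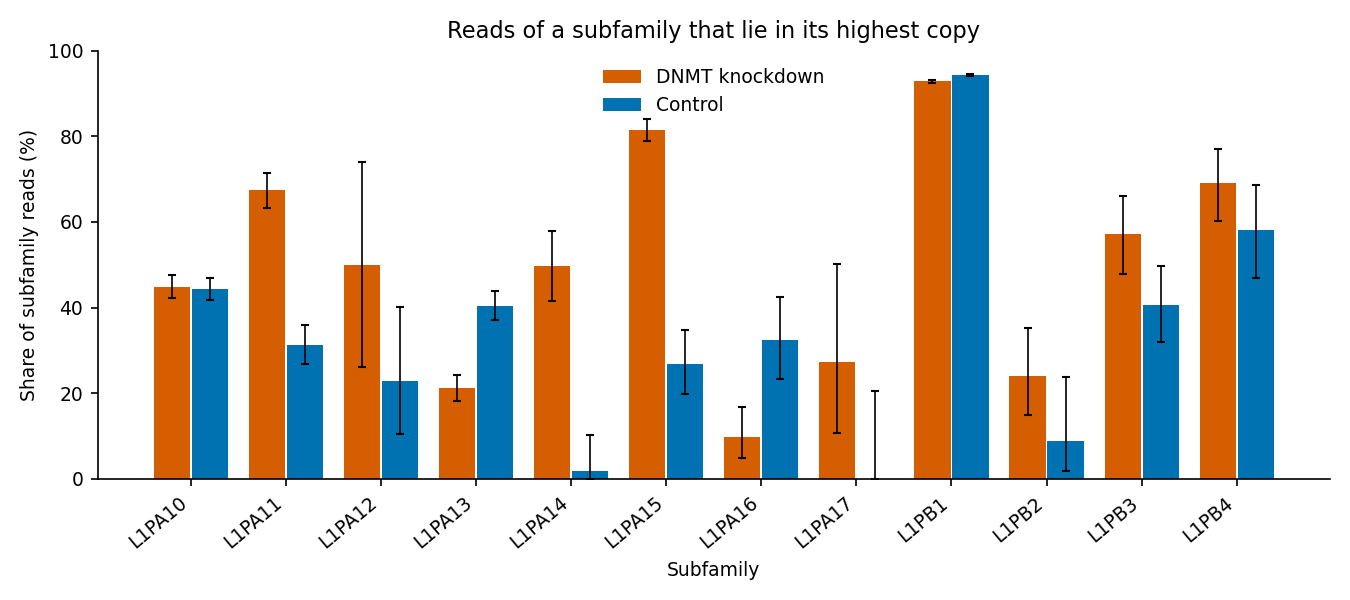
Share of each subfamily's reads that lay in its highest copy, in percent, with the knockdown bar left of the control bar and 95% exact binomial intervals for counting error. The share was near 93 to 94% for L1PB1 in both libraries, while in L1PA15 it was 81.5% in the knockdown and 26.8% in the control.

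L1PB1 was the most abundant of the older subfamilies and its total did not differ beyond counting error between the libraries. Its 366 copies held 17847 reads in the knockdown and 19351 in the control, with a ratio of 1.01 (0.986 to 1.03). The copy on chromosome 12, 117192162 to 117198668, had 27.5 RPKM in the knockdown and 27.8 RPKM in the control, from 16574 and 18259 reads, and its ratio was 0.991 (0.970 to 1.01). The other 365 copies together had a lower level of 0.00639 RPKM in the knockdown and 0.00502 RPKM in the control, and their ratio was 1.27 (1.17 to 1.38).

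Other L1PB1 copies differed in both directions. The copy on chromosome 2, 168700745 to 168706115, had 213 reads in the knockdown and 35 in the control (0.429 and 0.0646 RPKM), a ratio of 6.64 (4.63 to 9.79). Another, on chromosome 4, 100214656 to 100220558, had 62 reads in the knockdown and 13 in the control, a ratio of 5.20 (2.83 to 10.3). On the lower side, the copy on chromosome 9, 2433676 to 2440086, had 95 reads in the knockdown and 209 in the control (0.496, 0.385 to 0.635). A further copy on chromosome 18, 1205161 to 1210584, had 12 and 45 reads (0.291, 0.140 to 0.559). Of the 22 L1PB1 copies with at least 20 reads over both libraries, 7 were at least 2-fold higher in the knockdown and 5 at least 2-fold lower, where 42.7% and 3.11% of all 4175 L1 copies with that many reads were.

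The smaller L1PB subfamilies differed in how far they rested on 1 copy. The highest copy held 24% of the L1PB2 reads in the knockdown and 8.82% in the control. It held 57.1% and 40.6% in L1PB3 and 69.0% and 58.1% in L1PB4. L1PB2 held 75 reads in the knockdown and 34 in the control over 37 copies, a ratio of 2.41 (1.59 to 3.72) that remained at 2.01 (1.27 to 3.22) without its highest copy. That copy, on chromosome 1, 73509481 to 73517074, had 18 reads in the knockdown and 3 in the control (6.55, 1.91 to 34.7). L1PB4 held 126 and 86 reads, a ratio of 1.60 (1.21 to 2.13), of which 87 and 50 lay in a copy on chromosome 5, 12821305 to 12827129 (1.90, 1.33 to 2.75). Without it the L1PB4 ratio was 1.18 with an interval of 0.732 to 1.91 that holds 1. L1PB3 held 119 and 128 reads (1.01, 0.784 to 1.31), and its highest copy, on chromosome 2, 189254349 to 189261963, had 68 and 52 (1.43, 0.980 to 2.09).

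Among the L1PA subfamilies, L1PA15 differed most between the libraries. Its 132 copies held 926 reads in the knockdown and 149 in the control, a ratio of 6.78 (5.70 to 8.12). The copy on chromosome 3, 154951845 to 154958485, accounted for 755 of these reads in the knockdown and 40 in the control (1.23 and 0.0597 RPKM), a ratio of 20.6 (14.98 to 29.1). The other 131 copies still had a ratio of 1.71 (1.34 to 2.20), from 171 reads in the knockdown and 109 in the control.

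The L1PA15 copy has an older neighbour that differed in the same direction. The L1PA10 copy on chromosome 3, 154938498 to 154943837, lies 8007 bp away and had 272 reads in the knockdown and 10 in the control (0.551 and 0.0186 RPKM), a ratio of 29.7 (15.9 to 62.6). The pair held 18.6% of the reads outside the highest copy in the knockdown and 1.13% in the control. Without the pair and the chromosome 12 copy, the ratio of all older copies was 1.12 (1.07 to 1.16). Whether 1 transcript spans both copies was not tested.

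L1PA10 as a whole held 1425 reads in the knockdown and 1462 in the control over 146 copies, a ratio of 1.06 (0.988 to 1.14) that hid opposite differences between copies. Its highest copy, on chromosome 4, 128638142 to 128644524, was near level, with 1.08 RPKM in the knockdown and 1.00 RPKM in the control, from 640 and 647 reads (1.08, 0.966 to 1.21). Beside the copy on chromosome 3 that was higher, the copy on chromosome 9, 115750430 to 115756749, had 121 reads in the knockdown and 290 in the control (0.455, 0.365 to 0.565). Another copy, on chromosome 1, 220814954 to 220821404, had 127 and 272 reads (0.510, 0.409 to 0.631).

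L1PA11 showed the same pattern in a smaller group. Its 103 copies held 507 reads in the knockdown and 419 in the control (1.32, 1.16 to 1.51). Its highest copy, on chromosome 19, 44473800 to 44478910, had 342 and 131 reads (0.724 and 0.254 RPKM; 2.85, 2.32 to 3.51), and the copy on chromosome 1, 82994799 to 83000000, had 40 and 179 reads (0.0831 and 0.341 RPKM; 0.244, 0.169 to 0.345). Without the first of these copies the L1PA11 ratio turned to 0.625 (0.513 to 0.760). With both left out, the 101 other copies held 125 reads in the knockdown and 109 in the control (1.25, 0.960 to 1.63).

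L1PA13 and L1PA14 were also set by their highest copies, in opposite directions. L1PA13 held 753 reads in the knockdown and 862 in the control over 122 copies (0.953, 0.863 to 1.05), with its highest copy, on chromosome 20, 44100759 to 44107254, at 159 and 349 reads (0.497, 0.410 to 0.601). The other 121 copies had a ratio of 1.26 (1.12 to 1.42). A pair of them, each 5222 bp long and 121812 bp apart on the X chromosome, starting at 154583984 and 154711018, had 88 and 65 reads in the knockdown and 81 and 46 in the control. L1PA14 held 151 and 52 reads over 41 copies (3.17, 2.30 to 4.43), of which a copy on chromosome 1, 146934492 to 146941668, took 75 in the knockdown and 1 in the control (81.8, 14.2 to 3275), and the other 40 copies had a ratio of 1.63 (1.13 to 2.37).

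L1PA16, L1PA12 and L1PA17 had few reads for their number of copies. L1PA16 held 113 reads in the knockdown and 99 in the control (1.25, 0.943 to 1.65), and its highest copy, on chromosome 11, 94156210 to 94161747, had 11 and 32 reads (0.375, 0.171 to 0.764). L1PA12 held 18 and 35 reads over 16 copies (0.561, 0.299 to 1.02), of which 9 and 8 lay in a copy on chromosome 4, 107024877 to 107030165. That copy, the highest by mean RPKM, stood at 0.0150 RPKM in the control, where another L1PA12 copy reached 0.0272 RPKM. Without the chromosome 4 copy, the other 15 L1PA12 copies held 9 reads in the knockdown and 27 in the control (0.364, 0.151 to 0.797). L1PA17 held 22 and 16 reads over 30 copies (1.501, 0.753 to 3.06), and its highest copy had 6 reads in the knockdown and 0 in the control, with a lower limit of 1.28 for the ratio.

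**Figure D3:**
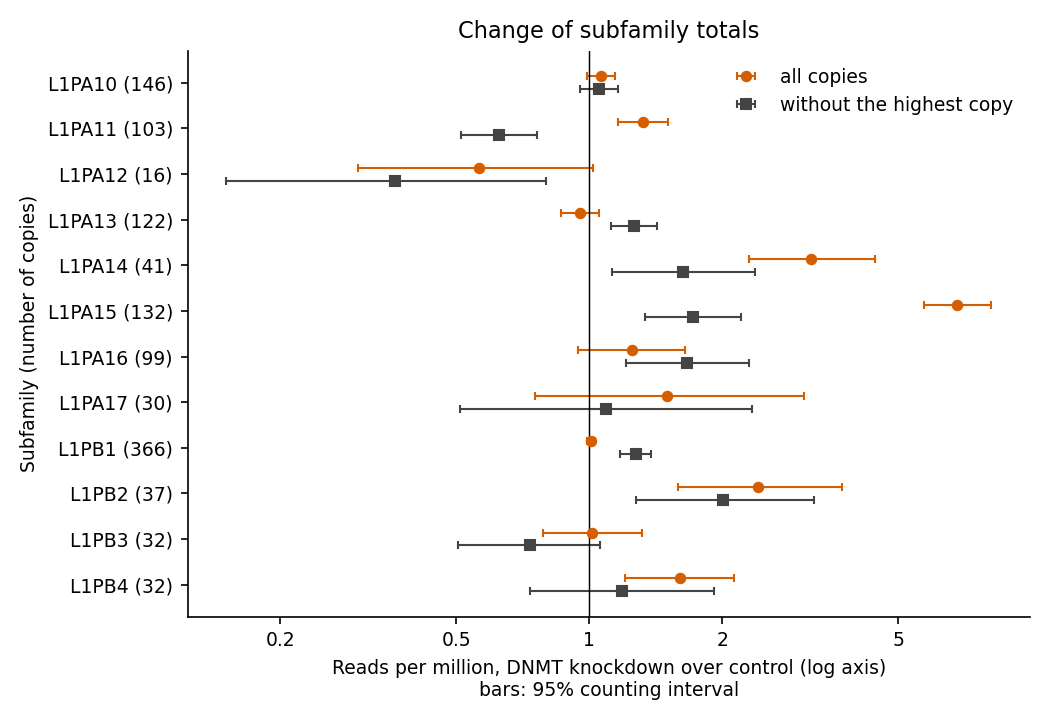
Ratio of RPM, knockdown over control, for each of the 12 subfamilies on a log axis, with all copies (circles) and without the highest copy (squares), and 95% counting intervals. L1PA15 stood at 6.78 with all copies and at 1.71 without the highest one, and L1PA11 at 1.32 and 0.625.

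Over the 12 subfamilies, 10 had a ratio above 1, and the interval lay above 1 in 5 (L1PA11, L1PA14, L1PA15, L1PB2 and L1PB4), below 1 in 0 and held 1 in 7. Without the highest copy of each, 9 were above 1. The interval then lay above 1 in 6 (L1PA13, L1PA14, L1PA15, L1PA16, L1PB1 and L1PB2) and below 1 in 2 (L1PA11 and L1PA12). All L1 copies together had a ratio of 1.54 (1.53 to 1.55). The same counts were not made over all 64 subfamilies, so they cannot be read as particular to the older copies. The intervals treat reads as independent molecules, which PCR copies and several reads from 1 transcript are not, so they are too narrow by an unknown amount.

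Copies were then compared singly. Only 55 of the 1156 older copies (4.76%) had at least 20 reads over both libraries, against 4079 of 7838 younger copies (52.0%). Of the 55, 18 (32.7%) were at least 2-fold higher in the knockdown, where 42.7% of all 4175 L1 copies with that many reads were. At the same time 12 (21.8%) were at least 2-fold lower, where 3.11% of all such L1 copies were, and 25 lay between. Of the 55 copies, 38 had at least 10 reads in each library, 13 reached that number only in the knockdown and 4 only in the control. Copies that reached it in a single library were bound to be uneven in reads, though not always 2-fold. An L1PB1 copy on chromosome 19, starting at 44625329, had 15 reads in the knockdown and 9 in the control, a ratio of 1.82. The share that was higher thus lay below the share over all L1 copies, and the share that was lower lay above it. Neither difference was tested. Of those 4175 copies, 4079 were younger ones. Among the 23 L1M copies with at least 20 reads, 9 (39.1%) were at least 2-fold higher in the knockdown and 3 (13%) at least 2-fold lower.

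**Figure D4:**
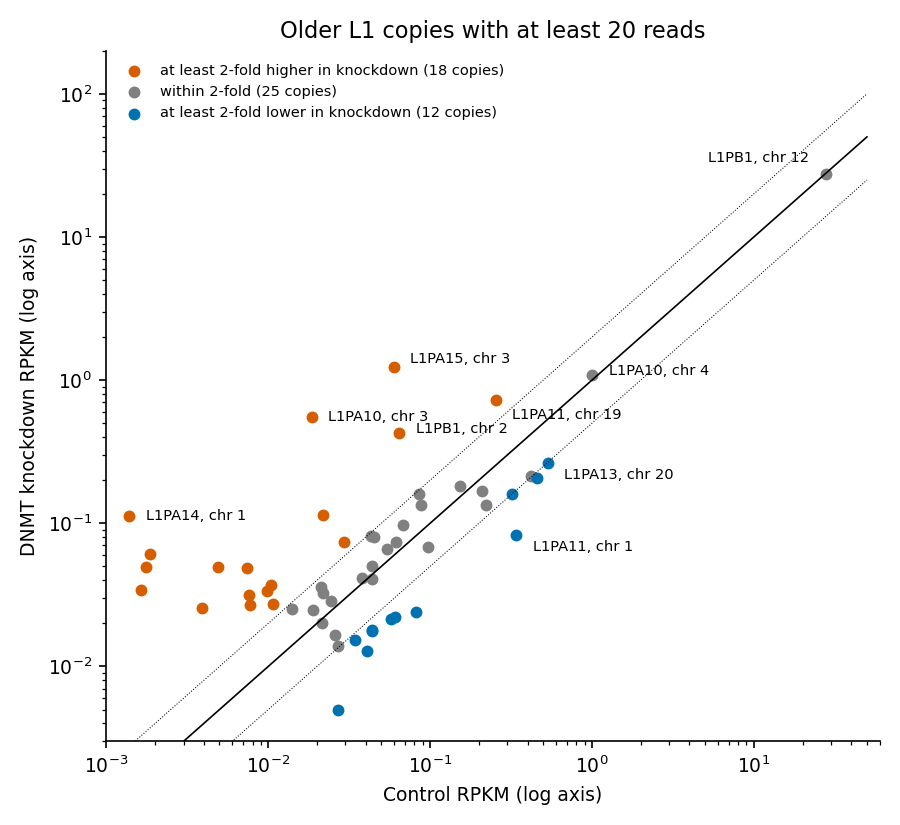
RPKM in the knockdown against RPKM in the control, both on log axes, for the 55 older copies with at least 20 reads, where the solid line marks equal levels and the dotted lines a 2-fold difference. The most abundant copy, of L1PB1, lies on the line of equal levels, and the L1PA15 copy stands far above it, at 1.23 RPKM in the knockdown and 0.0597 RPKM in the control.

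Neighbours were taken from the whole L1 table. A listed L1 copy of any subfamily lay within 50000 bp of 27 of the 55 copies. For 7 of the 18 higher copies such a neighbour had at least 20 reads, and in 3 cases (42.9%) any such neighbour was at least 2-fold higher as well. Of all L1 copies with that many reads, 42.7% were. The 2 shares are not alike, because a copy can have several neighbours and the latter counts single copies. The 3 cases were the 2 copies of the chromosome 3 pair, each counted as the other's neighbour, and the L1PB1 copy on chromosome 2. The nearer neighbour of that L1PB1 copy, an L1PA3 copy 3045 bp away, had 131 reads in the knockdown and 32 in the control. The L1PA14 copy on chromosome 1 had an L1PA2 neighbour 33519 bp away with 56 and 34 reads. Of the 12 lower copies, 1 had such a neighbour and it was not 2-fold lower. The 55 copies were somewhat longer than the rest, with a median of 6140 bp against 5846 bp for the 1101 copies under 20 reads.

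The 1101 thinly covered copies held 1393 reads in the knockdown and 1119 in the control, a ratio of 1.36 (1.26 to 1.47), and 11 of 12 subfamilies were above 1 when only these copies were summed. The exception was L1PA12 at 0.561, and L1PB2 was at 2.01, L1PA16 at 1.78 and L1PB1 at 1.25. Subfamilies outside the older ones were not counted in this way. The higher level lay in the 171 copies with 5 to 19 reads over both libraries. They held 945 reads in the knockdown and 550 in the control (1.88, 1.69 to 2.09). Of the 171, 117 had a higher RPM in the knockdown. In the same range of reads, 1572 of all 3130 L1 copies and 44 of 65 L1M copies did. The 540 copies with 1 to 4 reads had a ratio of 0.859 (0.757 to 0.974).

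The older copies were set beside the younger L1PA copies and the 621 ancient L1M copies, over the same libraries. Younger copies held 182010 reads in the knockdown and 125433 in the control, a ratio of 1.58 (1.57 to 1.60), and L1M copies 7879 and 1400 reads, a ratio of 6.14 (5.80 to 6.51). Without the highest copy of each subfamily the ratios were 1.17 (1.11 to 1.23) for older, 1.68 (1.67 to 1.69) for younger and 1.68 (1.51 to 1.86) for L1M copies. The older ratio came from 3338 reads in the knockdown and 3121 in the control. These still included the L1PA10 copy on chromosome 3, with 272 and 10 reads. By coverage the order was not fixed. Among copies with at least 50 reads the ratio was 1.04 (1.02 to 1.06) for the 27 older copies and 1.78 (1.77 to 1.80) for the 1562 younger ones. The older value was governed by the L1PB1 copy on chromosome 12. It held 16574 of the 20230 knockdown reads and 18259 of the 21194 control reads of those 27 copies. Among copies with 5 to 19 reads the ratio was 1.88 for older, 1.01 (0.993 to 1.04) for younger and 1.60 (1.35 to 1.90) for L1M copies. Copies are placed in these classes by their reads in both libraries together, so a copy that is much higher in 1 library moves to a higher class.

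**Figure D5:**
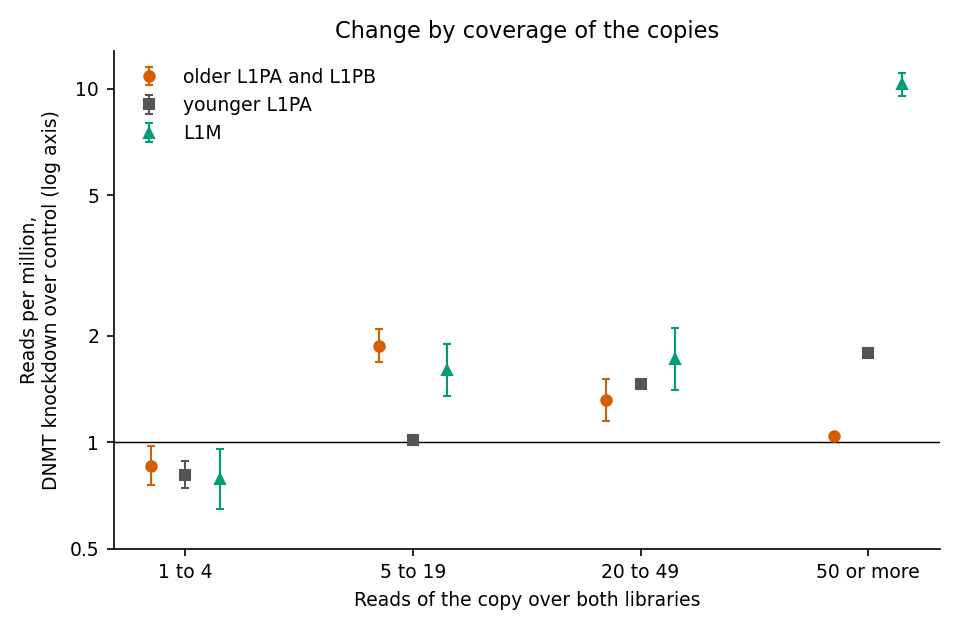
Ratio of summed RPM, knockdown over control, on a log axis, for older, younger and L1M copies grouped by their reads over both libraries, with 95% counting intervals. Older copies had the ratio 1.88 at 5 to 19 reads and 1.04 at 50 or more, where younger copies had 1.01 and 1.78. In the older class at 50 or more reads, the L1PB1 copy on chromosome 12 held 16574 of 20230 knockdown reads and 18259 of 21194 control reads.

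Genes known to act in L1 silencing, listed together with the DNA demethylation genes TET1, TET2 and TET3, were examined beside the L1 copies. Of 25 listed genes, 24 were in the table and 22 had a mean of at least 1 RPKM. Of these 22, 2 were at least 2-fold lower in the knockdown, where 6.57% of all 11763 genes at that level were, and they were the targeted DNMT1 and DNMT3B. None of the 22 was 2-fold higher, where 5.4% of all genes were, and the list's median ratio was 0.990 against 1.01 over all RefSeq entries at that level. TRIM28 (KAP1), the corepressor of KRAB zinc finger proteins, stood at 233 RPKM in the knockdown and 182 RPKM in the control, and SETDB1, the H3K9 methyltransferase it recruits, at 8.65 and 9.70 RPKM. The heterochromatin protein gene CBX5 was at 12.4 and 23.5 RPKM, SUV39H2, another H3K9 methyltransferase, at 3.43 and 2.18 RPKM, and ZNF93, a zinc finger protein known to bind L1PA elements, at 8.25 RPKM in both libraries.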

How the data were processed

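The data used were RNA-seq of the human line H1, with 1 DNMT knockdown library and 1 control library. The mouse files of the series were not used. The authors deposited RPKM values (reads per kilobase, scaled to the library total) for single L1 copies and for RefSeq entries. Bowtie 0.12.5 and hg19 are named in the submitters' processing notes. For reads that map to several places, the sources used here do not give the rule of placement, nor the annotation release or the use of strand. Near-identical copies may share reads.

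Whole reads were worked out from RPKM and copy length: 1 total per library, found from the values, turned 100% of the 9840 L1 values into whole numbers within 0.01 reads. This was tested on simulated data. Ratios are of RPM (reads per 1000000 library reads), knockdown over control, with exact 95% intervals for the ratio of 2 counts (scipy 1.17.1); shares have exact Clopper-Pearson intervals. Both cover counting error only. A copy was called at a ratio of at least 2 or at most 0.5, given at least 20 reads over both libraries, with 3 reads standing in for 0. Gene values are the entry with the highest mean.

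Copies named in the text are the highest by mean RPKM in each subfamily, the 10 highest of all, and, among copies with at least 50 reads, the 6 with the largest and 6 with the smallest ratio, 20 copies in all; the X chromosome pair and the neighbours were added after their values were seen. The members and lists were chosen with earlier results of these data known. Alternatives changed the scaling, the weight of copies, the copies left out, the read minimum, the fold and the pseudocount.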

Additional observations from a re-analysis of the deposited data

How the results depend on the processing

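No paired analysis was possible because the human groups have 1 library each. For the same reason no replicate could be left out, and all values hold for these 2 libraries only. Scaling by the median ratio of RefSeq entries (1.01) or by their summed RPKM (1.01), and a plain mean over copies, left the total and all 12 subfamily ratios within their counting intervals. The copies left out mattered more. Without the highest copy of each subfamily the total was 1.17, and, in settings chosen after seeing the data, it was 1.36 without the highest copy of all, 1.12 without it and the chromosome 3 pair, and 1.24 without the 10 highest. The same omission gave 0.625 for L1PA11, 1.26 for L1PA13, 1.63 for L1PA14, 1.71 for L1PA15, 1.66 for L1PA16, 1.27 for L1PB1, 0.732 for L1PB3 and 1.18 for L1PB4, and the other 4 subfamilies stayed within their intervals. It also brought the ratio of older copies to 0.695 of the younger and 0.695 of the L1M ratio, which were 0.671 and 0.173 with all copies.

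Of the 55 copies with at least 20 reads, 18 were at least 2-fold higher and 12 lower. These counts were 134 and 45 of 1156 copies with no read minimum and 7 and 5 of 27 copies at 50 reads. With a pseudocount of 0.05 RPKM on the log2 scale they were 7 and 1, and with 0.01 they were 17 and 7. A 3-fold limit gave 15 and 4 and a 1.5-fold limit 25 and 16. Both scalings left 18 and 12. The share over all L1 copies was taken only at 20 reads and 2-fold, with 42.7% higher and 3.11% lower. Counts at the other settings thus have no background beside them. A pseudocount reduces the ratio of low copies by construction: for the L1PA14 copy on chromosome 1 it was 10.8 with 0.01 and 3.17 with 0.05.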
